A study of Mus musculus with 48 samples.

Results

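The glutamate receptors and transporters measured here are 29 genes of the mouse, chosen by name: the arrays' own gene column had to give one of the listed symbols and the spot could not be a control. They are 17 ionotropic receptor subunits (4 AMPA, 7 NMDA, 5 kainate and 1 delta), 7 metabotropic receptors and 5 transporters, read by 44 of the 55681 probes on the array. RNA was measured in the medial prefrontal cortex (mPFC) and in whole blood of the same 24 female C57BL/6J mice, each 17 weeks old, with 1 one-colour array per mouse and tissue. Control mice had a sham operation and no stress, CUMS mice a sham operation and chronic ultra-mild stress, OVX mice an ovariectomy and no stress, and OVX+CUMS mice both, with 6 mice in each of the 4 groups. All mice were therefore operated on, were of 1 sex and 1 strain, and were decapitated under pentobarbital anesthesia. The mPFC was cut from coronal slices and holds neurons, glia and vessels together, and the blood sample was the pellet of a short centrifugation, so in both tissues fewer cells of a type and less RNA per cell cannot be told apart.

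Glutamate is the main excitatory transmitter of the cortex. Vesicular transporters load it into synaptic vesicles, AMPA, NMDA and kainate receptors are ion channels that it opens, and metabotropic receptors act through G proteins on slower time scales. Plasma membrane transporters on astrocytes and neurons take it up again. Estrogen and chronic stress are both known to act on glutamatergic neurons of the prefrontal cortex, and some glutamate receptor genes are also transcribed in cells of the blood.

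Levels are given as log2 of the background-subtracted signal minus the 75th percentile of the same array, so 0 is the signal of a bright probe and a difference of 1 is a factor of 2. A probe was called detected in a tissue when it stood above background on all 24 arrays and its signal passed 50 on at least 2. In the mPFC 41 of the 44 member probes and 27 of the 29 genes were detected, against 28353 of 55681 probes in all. Not detected were Grin3b, an NMDA receptor subunit that was well above background on 19 of 24 arrays, Grm6 on 0 of 24, and the second Grik1 probe on 20 of 24. Each gene is described by its lead probe, the brightest detected one, and the intervals given are 95% confidence intervals. The number of arrays limits the precision, and levels of different probes are not comparable with each other.

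The arrays of each tissue lay on 3 slides, numbered here in the order of the groups. Slide 1 held the 6 control mice and CUMS mice 1 and 2, slide 2 held CUMS mice 3 to 6 and OVX mice 1 to 4, and slide 3 held OVX mice 5 and 6 and the 6 OVX+CUMS mice. No slide held both control and OVX or OVX+CUMS mice, so the part of the slide in an OVX effect or in the difference between OVX+CUMS and control mice cannot be told apart from the group. The 4 CUMS mice on slide 2 could be compared with the 2 on slide 1, which had the same treatment, and 4606 of 28353 probes passed in the mPFC, among them the lead probe of 1 of the 27 members. With slide as a block in the model, none of the 27 members passed the threshold for any effect in the mPFC. The share of all probes that passed in that model is not given here, so this count cannot be read as particular to the members. In the mPFC of OVX+CUMS mouse 5 the detected neutrophil markers stood 4.02 above their mean over all mice on the log2 scale, and in its blood 3.91, and leaving out this mouse is among the alternatives below. The array of mPFC control mouse 5 had the fewest probes well above background, 31551 against 38053 on the array with the most.

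Sequences of 4 members are shown by the 250 bases before their annotated start, read from RefSeq (GRCm38.p6). RefSeq promoters were at hand for 20 of the 29 members. Gria2 is shown for the only member promoter that held one of the motifs searched, Grin1 and Slc17a7 for 2 of the 3 members that rose under both treatments, and Slc17a6 for the member that fell most under CUMS. Slc17a6 had another annotated start, with the bases before it at chr7:51624387-51624636, which are not shown.
Gria2, chr3:80802836-80803085, minus strand: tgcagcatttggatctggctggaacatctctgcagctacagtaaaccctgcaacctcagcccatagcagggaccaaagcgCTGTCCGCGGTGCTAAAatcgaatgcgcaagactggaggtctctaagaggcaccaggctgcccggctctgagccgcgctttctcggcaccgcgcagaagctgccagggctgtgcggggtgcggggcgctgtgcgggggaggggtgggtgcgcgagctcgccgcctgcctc
Grin1, chr2:25319188-25319437, minus strand: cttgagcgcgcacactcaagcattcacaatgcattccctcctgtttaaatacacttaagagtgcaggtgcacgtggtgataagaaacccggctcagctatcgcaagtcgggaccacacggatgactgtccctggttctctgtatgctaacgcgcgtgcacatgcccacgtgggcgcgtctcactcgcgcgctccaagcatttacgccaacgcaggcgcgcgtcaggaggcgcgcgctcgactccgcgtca
Slc17a7, chr7:45163671-45163920, plus strand: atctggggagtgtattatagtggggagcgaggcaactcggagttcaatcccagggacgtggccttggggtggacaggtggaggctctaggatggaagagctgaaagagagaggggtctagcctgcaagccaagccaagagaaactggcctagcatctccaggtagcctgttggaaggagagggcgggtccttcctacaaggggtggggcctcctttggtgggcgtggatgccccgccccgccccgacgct
Slc17a6, chr7:51621580-51621829, plus strand: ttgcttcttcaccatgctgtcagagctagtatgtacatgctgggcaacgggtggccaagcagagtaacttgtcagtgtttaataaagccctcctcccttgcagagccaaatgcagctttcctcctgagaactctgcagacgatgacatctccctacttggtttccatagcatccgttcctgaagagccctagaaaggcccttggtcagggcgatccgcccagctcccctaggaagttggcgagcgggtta
Capitals mark the match to the RE1 element, the site of the repressor REST that keeps many neuronal genes silent outside neurons. It started at position -170 relative to the annotated start of Gria2, on the opposite strand. Both strands of all 300 bases from 250 before to 50 after each start were searched for the palindromic consensus of the estrogen response element, that of the glucocorticoid response element, the cyclic AMP response element TGACGTCA and the RE1 consensus. Of the 32851 RefSeq promoters, 0.07% held the first, 0.475% the second, 1.79% the third and 0.0639% the RE1 consensus. Among the 24 promoters of members, 1 held RE1 and 0 held any of the other motifs, which says only that these letters were not in these windows.

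The question of the first comparison was which members differed with ovariectomy in the mPFC. The OVX effect is the mean of the differences between OVX and control mice and between OVX+CUMS and CUMS mice. By lead probe 5 of 27 detected members rose and 0 fell (limma, adjusted p under 0.05), beside 29.9% of the lead probes of all gene symbols, of which 21.5% rose and 8.45% fell. The median OVX effect of the members was 0.05, and that of all lead probes was 0.05 as well. The 5 members were the NMDA receptor subunits Grin1 and Grin2d, the kainate receptor subunit Grik5, the metabotropic receptor Grm5 and the vesicular transporter Slc17a7.

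Grin1 encodes the obligatory subunit of the NMDA receptor. Its level in the mPFC was 2.62 to 2.79 (median 2.75) in the control group, 2.88 to 3.03 (2.94) under CUMS alone, 2.88 to 3.11 (2.98) after OVX alone and 2.93 to 3.15 (3.09) under both treatments. Every mouse of the 3 treated groups lay above every control mouse. The OVX effect was 0.20 ± 0.03 (SE, n = 24; adjusted p = 0.00023 by limma), a 1.15-fold rise, and the CUMS effect was 0.15 ± 0.03 (adjusted p = 0.0247 by limma). OVX+CUMS mice exceeded control mice by 0.35, with an exact permutation p of 0.00216, the smallest that 6 against 6 mice allow. The second Grin1 probe had the same signs but did not pass, with 0.05 ± 0.05 for OVX and 0.12 ± 0.05 for CUMS.

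Slc17a7 encodes VGLUT1, which fills vesicles of most cortical excitatory neurons. Levels were 2.89 to 3.18 (median 3.09) in the control group, 3.05 to 3.37 (3.25) under CUMS alone, 3.16 to 3.37 (3.32) after OVX alone and 3.33 to 3.53 (3.43) under both treatments. OVX+CUMS mice lay above all control mice, and the other groups overlapped with their neighbours. The effects were 0.21 ± 0.04 for OVX (adjusted p = 0.000503 by limma) and 0.15 ± 0.04 for CUMS (adjusted p = 0.0401 by limma). The CUMS call was lost when any of 15 of the 24 mice was left out, with values of 0.13 to 0.17.

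Grik5 encodes the GluK5 subunit, which joins other subunits to form kainate receptors of high affinity. Its level was 3.18 to 3.41 (median 3.26) in the control group, 3.43 to 3.54 (3.45) under CUMS alone, 3.38 to 3.58 (3.50) after OVX alone and 3.44 to 3.65 (3.56) under both treatments. CUMS and OVX+CUMS mice lay above all control mice, and 5 of the 6 OVX mice did so. The OVX effect was 0.14 ± 0.03 (adjusted p = 0.00363 by limma), and the CUMS effect of 0.12 ± 0.03 was close to the threshold (adjusted p = 0.0487 by limma) and passed in 5 of the 24 fits that left out a mouse.

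Grm5 encodes mGluR5, a group I receptor of the postsynaptic membrane. Levels were 4.03 to 4.41 (median 4.23) in the control group, 4.20 to 4.58 (4.49) under CUMS alone, 4.43 to 4.69 (4.54) after OVX alone and 4.27 to 4.72 (4.46) under both treatments. All OVX mice lay above all control mice, and the other groups overlapped with both. The OVX effect of the lead probe was 0.18 ± 0.06 (adjusted p = 0.0268 by limma), while the other 2 detected Grm5 probes gave 0.10 ± 0.06 and 0.01 ± 0.06 and did not pass. Without control mouse 5, CUMS mouse 1 or CUMS mouse 2 the call was lost. Among CUMS mice alone, those on slide 2 exceeded mice 1 and 2, on slide 1, by 0.29 (adjusted p = 0.0228 by limma), more than the OVX effect, and this is the member whose lead probe differed between slides within CUMS mice.

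Grin2d encodes the GluN2D subunit, known in the adult cortex from interneurons. It lay near background, with a mean signal of 56.7, and its levels were -3.93 to -3.36 (median -3.58) in the control group, -3.87 to -3.38 (-3.56) under CUMS alone, -3.42 to -3.17 (-3.35) after OVX alone and -3.59 to -3.17 (-3.44) under both treatments. The ranges overlapped, and 3 of the 6 OVX mice lay above all control mice. The OVX effect was 0.22 ± 0.07 (adjusted p = 0.0165 by limma).

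**Figure D1:**
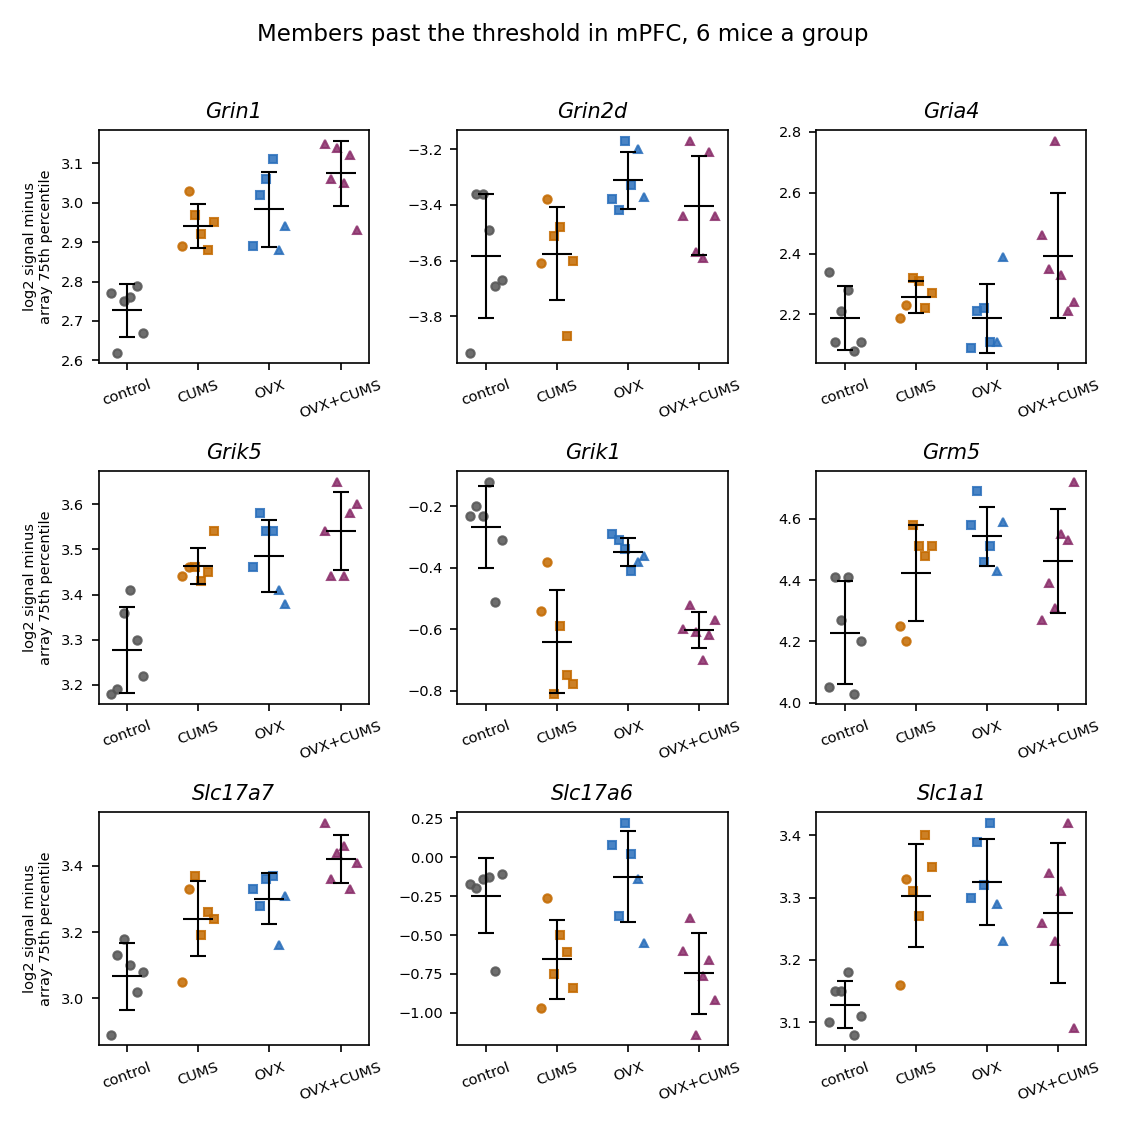
Levels of the 9 members whose lead probe passed the threshold for an effect in the mPFC, as log2 signal minus the array's 75th percentile, in the 4 groups of 6 mice. Points are mice (circles slide 1, squares slide 2, triangles slide 3) and bars are the mean and SD. Grin1 lay above the control range in every treated mouse, whereas Grik1 and Slc17a6 were low in the CUMS and OVX+CUMS mice.

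The remaining 22 detected members did not pass for OVX, with effects between -0.07 for Grm2 and 0.15 for Grid1. The AMPA receptor subunits, which carry fast excitation, gave 0.12 ± 0.06 for Gria1, -0.04 ± 0.04 for Gria2, -0.01 ± 0.04 for Gria3 and 0.07 ± 0.05 for Gria4. A second Gria3 probe rose by 0.13 ± 0.04 (adjusted p = 0.0134 by limma) where the lead probe did not pass, so the probes of this gene disagree. For the astrocytic transporter Slc1a2 (GLT-1) the lead probe gave 0.01 ± 0.06, another probe rose by 0.19 ± 0.07 (adjusted p = 0.0351 by limma), and the third gave 0.14 ± 0.07 without passing. Slc1a3 (GLAST), the other astrocytic transporter, gave 0.03 ± 0.05 with an interval of -0.07 to 0.13. The presynaptic group II and III receptors Grm2, Grm3, Grm4, Grm7 and Grm8 gave between -0.07 and 0.01, and their intervals lay within -0.20 and 0.11. Over the 14 other detected probes of members, 5 had the opposite sign of the lead probe for OVX.

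By class, 3 of 16 detected ionotropic subunits, 1 of 6 metabotropic receptors and 1 of 5 transporters rose with OVX, beside 21.5% of all lead probes. The class medians were 0.08, -0.01 and 0.03, and a difference between classes was not tested. These rises hold against the percentile that scaled every array. When arrays were shifted by the median of their spike-in probes instead, which moved the median OVX effect of all detected probes from 0.04 to -0.09, the effects of Grin1, Slc17a7, Grik5, Grm5 and Grin2d were 0.07, 0.08, 0.01, 0.05 and 0.09, and 0 members passed. Of all 28353 detected probes, 2204 passed for OVX with this shift, 37 of them higher. Under the slide block the OVX effects of Grin1, Slc17a7 and Grik5 were 0.29, 0.23 and 0.22 and had the adjusted p-values 0.402, 0.641 and 0.575. The detected microglia markers moved the same way, as 6 of 7 rose with OVX, beside 21.5% of all lead probes. Their mean level ran from -0.20 to -0.07 in control mice and from 0.01 to 0.17 in OVX mice. However, CUMS mice 1 and 2 on slide 1 were at -0.15 and -0.19, and CUMS mice 3 to 6 on slide 2 were at -0.02 to 0.12. The 2 detected T cell markers, of 4, ran from 0.24 to 0.52 in control mice and from -0.32 to -0.05 in OVX mice, and CUMS mice were at 0.24 and 0.42 on slide 1 and at -0.22 to -0.18 on slide 2. Both marker levels thus differed between slides within the CUMS group, without ovariectomy. The part of these cells in these results was not tested.

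The next question was which members differed with CUMS in the mPFC, over both kinds of surgery. By lead probe 3 of 27 detected members rose and 2 fell, beside 4.46% of all lead probes, of which 2.96% rose and 1.51% fell. Both falls were larger than any rise. The risers were Grin1, Slc17a7 and Grik5, which also rose with OVX, and the members that fell were Grik1 and Slc17a6.

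Slc17a6 encodes VGLUT2, the vesicular transporter of most thalamic and other subcortical excitatory neurons, whose axons reach the cortex. Its level was -0.73 to -0.11 (median -0.16) in the control group, -0.97 to -0.26 (-0.68) under CUMS alone, -0.55 to 0.22 (-0.06) after OVX alone and -1.14 to -0.39 (-0.71) under both treatments. The 2 stressed groups lay low and the 2 unstressed groups high, with overlap, and 1 control mouse (-0.73) lay far below the other 5 (-0.20 to -0.11). The CUMS effect was -0.51 ± 0.10 (interval -0.73 to -0.30; adjusted p = 0.0185 by limma), and the fall was 0.41 between CUMS and control mice (exact permutation p = 0.026) and 0.62 between OVX+CUMS and OVX mice (exact permutation p = 0.00433). The call held without any 1 of the 24 mice, with values from -0.56 to -0.47. With the spike-in shift the effect was -0.63 (adjusted p = 0.023 by limma), so it passed with either scaling. That shift moved the median CUMS effect of all detected probes from 0.01 to -0.11. Of the 140 probes that passed with it, 1 was higher, so nearly all calls there were falls.

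Grik1 encodes the GluK1 subunit of kainate receptors, known in the cortex mainly from interneurons. Levels were -0.51 to -0.12 (median -0.23) in the control group, -0.81 to -0.38 (-0.67) under CUMS alone, -0.41 to -0.29 (-0.35) after OVX alone and -0.70 to -0.52 (-0.61) under both treatments. All OVX+CUMS mice lay below all OVX mice and below all control mice, and 5 of the 6 CUMS mice lay below all control mice. Non-overlap of OVX+CUMS with OVX mice was found for 1 of the 27 members and for 0.42% of all detected probes. The CUMS effect was -0.32 ± 0.05 (interval -0.41 to -0.22; adjusted p = 0.00436 by limma), a 0.803-fold level, and it passed without any 1 of the 24 mice. The OVX effect was -0.02 ± 0.05. With the spike-in shift the CUMS effect was -0.43 but no longer passed (adjusted p = 0.208 by limma). The second Grik1 probe was not detected on all arrays and was not tested.

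**Figure D2:**
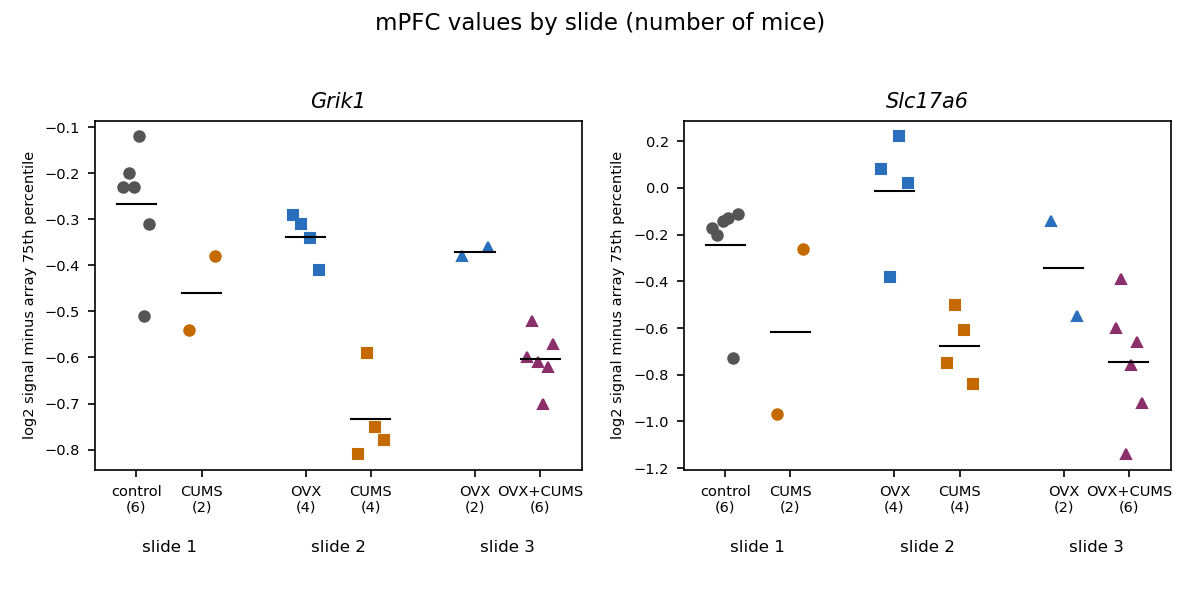
mPFC levels of Grik1 and Slc17a6 (log2 signal minus the array's 75th percentile) split by slide, with the number of mice in brackets, points for mice and lines for means. On each slide the stressed mice had the lower mean, with OVX mice as the unstressed mice on slides 2 and 3.

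Within slides these falls can be read without a slide term, at few mice. On slide 1 the 2 CUMS mice differed from the 6 control mice by -0.19 ± 0.10 for Grik1 and -0.36 ± 0.21 for Slc17a6. On slide 3 the 6 OVX+CUMS mice differed from the 2 OVX mice by -0.23 ± 0.07 for Grik1 and -0.40 ± 0.19 for Slc17a6. On slide 2 the 4 OVX mice exceeded the 4 CUMS mice by 0.40 ± 0.06 for Grik1 and 0.66 ± 0.13 for Slc17a6, a comparison that mixes both treatments. Between slides, the CUMS mice on slide 2 differed from those on slide 1 by -0.27 for Grik1 (adjusted p = 0.0803 by limma) and -0.06 for Slc17a6. None of the differences within a slide passed after adjustment, with adjusted p-values by limma between 0.0691 and 1, and 0 of the 28353 probes passed within slide 1 or within slide 3, where 1422 and 583 probes had an unadjusted p under 0.05. With slide as a block in all mice, the CUMS effects were -0.21 for Grik1 (adjusted p = 0.342 by limma) and -0.38 for Slc17a6 (adjusted p = 0.56 by limma).

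Cell type markers were set beside these falls. The detected thalamus markers, 3 of 5 in the list and without Lhx9 and Gbx2, had a mean level of -0.18 to 0.11 in the control group, -0.18 to 0.19 under CUMS alone, -0.20 to 0.24 after OVX alone and -0.10 to 0.14 under both treatments, and 0 of the 3 passed for CUMS. Interneuron markers, all 7 detected, ranged from 0.00 to 0.28 in the control group, -0.21 to 0.15 under CUMS alone, -0.07 to 0.07 after OVX alone and -0.28 to 0.13 under both treatments, and 0 passed. Excitatory neuron markers, all 8 detected, ranged from -0.17 to 0.00 in the control group, -0.07 to 0.09 under CUMS alone, -0.08 to 0.05 after OVX alone and 0.01 to 0.12 under both treatments. With CUMS 3 of 8 rose, beside 2.96% of all lead probes, and 0 of 8 passed for OVX, beside 29.9%. The part of these cells in the changes of Grik1, Slc17a6 or Slc17a7 was not tested. Of the other lists that describe the tissue, all 8 astrocyte markers were detected. Of the 9 striatum symbols 8 had a probe on the array, and all 8 were detected and ranged from -0.23 to 0.22 over the groups.

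Other members gave small CUMS effects. For the AMPA receptor subunits the lead probes gave between -0.06 and 0.14, and 0 of 4 passed. NMDA receptor subunits other than Grin1 gave between -0.04 and 0.14, the kainate receptor subunits Grik2, Grik3 and Grik4 gave -0.05, -0.07 and 0.06, and the delta subunit Grid1 gave -0.14 ± 0.08. All 6 detected metabotropic receptors lay between -0.06 and 0.08 without passing. The plasma membrane transporters Slc1a1, Slc1a2 and Slc1a3, which clear glutamate from the synapse, gave 0.06 ± 0.04, 0.00 ± 0.06 and -0.06 ± 0.05. By class, 3 of 16 ionotropic subunits, 0 of 6 metabotropic receptors and 2 of 5 transporters passed, beside 4.46% of all lead probes. The class medians were 0.01, 0.03 and 0.00, beside 0.02 for all lead probes, and a difference between classes was not tested.

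**Figure D3:**
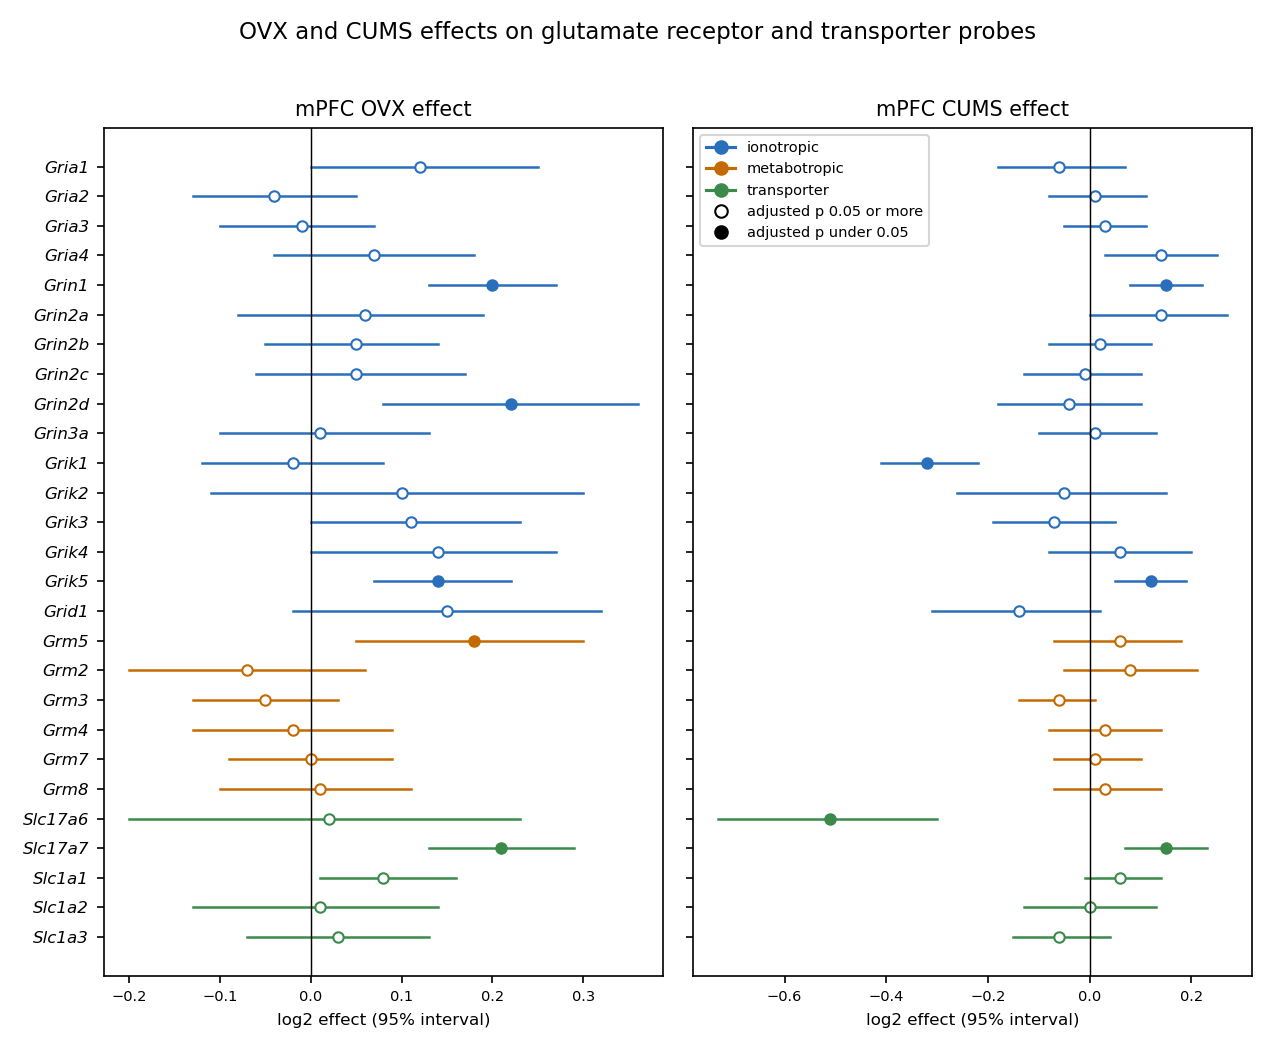
OVX and CUMS effects in the mPFC for the lead probe of each detected member, as log2 differences (points) with 95% intervals (lines), coloured by class. Filled points passed an adjusted p of 0.05. OVX calls are all rises of at most 0.22, and the 2 CUMS falls, Grik1 and Slc17a6, are the largest CUMS effects shown.

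No member passed the test of the interaction between surgery and stress in the mPFC, beside 3.27% of all lead probes, and 4 of 27 had an unadjusted p under 0.05. Slc1a1 (EAAC1), the neuronal plasma membrane transporter, had the lowest p, with an interaction of -0.22 ± 0.07 (adjusted p = 0.069 by limma). Its level was 3.08 to 3.18 (median 3.13) in the control group, 3.16 to 3.40 (3.32) under CUMS alone, 3.23 to 3.42 (3.31) after OVX alone and 3.09 to 3.42 (3.28) under both treatments. All OVX mice and 5 of 6 mice in each of the CUMS and OVX+CUMS groups lay above all control mice.

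OVX+CUMS mice differed from control mice in 8 of 27 members, 6 higher and 2 lower, beside 32.7% of all lead probes, of which 23.3% were higher and 9.44% lower. Slc17a7 (0.36 ± 0.06), Grin1 (0.35 ± 0.05), Grik5 (0.26 ± 0.05), Grm5 (0.24 ± 0.09), Gria4 (0.20 ± 0.08) and Slc1a1 (0.15 ± 0.05) were higher, and Slc17a6 (-0.50 ± 0.15) and Grik1 (-0.34 ± 0.07) were lower. These contrasts use the same control mice as the effects above. Leaving out 1 mouse ended the call of Gria4 or of Grm5 for 6 of the 24 mice each and that of Slc1a1 for 5. Gria4, an AMPA receptor subunit, had levels of 2.08 to 2.34 (median 2.16) in the control group, 2.19 to 2.32 (2.25) under CUMS alone, 2.09 to 2.39 (2.16) after OVX alone and 2.21 to 2.77 (2.34) under both treatments. Its groups overlapped, and its other detected probe gave 0.04 ± 0.07. With the spike-in shift the differences of Gria4, Grm5 and Slc1a1 turned to -0.04, -0.01 and -0.10, and those of Grin1, Slc17a7 and Grik5 were 0.10, 0.11 and 0.02. Then 1 of 27 members passed, Slc17a6 at -0.74, beside 3139 of 28353 detected probes, of which 25 were higher. Grik1 was at -0.59 (adjusted p = 0.0521 by limma). In the model with the slide block the differences of Slc17a6 and Grik1 were -0.10 and -0.03. Groups of OVX+CUMS and control mice did not overlap for 4 of the 27 members, beside 17.2% of all detected probes, those of CUMS and control mice for 2 (2.79%) and those of OVX and control mice for 3 (21%), and those of OVX+CUMS and CUMS mice for 0 (2.54%). The class counts for OVX+CUMS minus control were 4 of 16 ionotropic subunits, 1 of 6 metabotropic receptors and 3 of 5 transporters, beside 32.7% of all lead probes.

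Genes that work with the members were taken from lists of scaffold and auxiliary proteins, of glutamate metabolism and of other genes of the same families. Of 42 scaffold and auxiliary genes, 39 had a probe on the array under the listed name, and all 39 were detected in the mPFC. Beside the list counts, 4.46% of all lead probes passed for CUMS (2.96% rose and 1.51% fell) and 29.9% for OVX (21.5% rose and 8.45% fell). With CUMS 5 of the 39 rose and 2 fell. Arc, an activity-dependent regulator of AMPA receptors, rose most by 0.88 ± 0.18 (adjusted p = 0.0185 by limma), followed by Cnih3 (0.22 ± 0.06), an AMPA receptor auxiliary protein, and the scaffold Shank1 (0.19 ± 0.05), whereas the AMPA receptor auxiliary proteins Cacng5 (-0.41 ± 0.07) and Shisa6 (-0.29 ± 0.08) fell. With OVX 6 rose and 1 fell, led by Lrrtm2 (0.19 ± 0.05), Dlg2 (0.14 ± 0.04) and Dlgap1 (0.13 ± 0.04), and Homer3, which binds group I receptors, fell by 0.24. Of 16 genes of glutamate metabolism, 15 had a probe under the listed name, and all 15 were detected. Glud1 and Got2, which interconvert glutamate and 2-oxoglutarate, rose with OVX by 0.18 ± 0.03 and 0.14 ± 0.03, Slc25a22, a mitochondrial glutamate carrier, fell by 0.45, and 0 of 15 passed for CUMS. Of the 9 other family genes, all detected, Slc17a8, the third vesicular glutamate transporter (VGLUT3), fell by 0.33 with CUMS and by 0.20 with OVX, and Slc1a4, a neutral amino acid transporter, and Grid2ip, a partner of a delta subunit, fell with OVX by 0.30 and 0.31, while Grina rose by 0.17. The list medians were 0.05, 0.02 and 0.07 for OVX and 0.05, 0.02 and 0.01 for CUMS, beside 0.05 and 0.02 over all lead probes.

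The question of the blood arrays was which members could be measured there at all. Whole blood gave 20748 detected probes, and 7 of the 44 member probes were among them, for 6 of the 29 genes: 2 of 17 ionotropic subunits, 4 of 7 metabotropic receptors and 0 of 5 transporters. Of the other member probes, 21 were well above background on none of the 24 blood arrays and 16 on some of them. Grik5 came closest among those not detected, at 23 of 24 arrays. Of 8 excitatory neuron markers 7 were not detected in blood, while all 4 T cell, B cell, platelet and red cell markers were. Other brain lists were partly detected in blood, with 3 of 7 interneuron, 4 of 8 astrocyte, 5 of 7 microglia and 7 of 8 oligodendrocyte markers. Of the lists for brain regions, 2 of the 8 striatum markers with a probe and 2 of 5 thalamus markers were.

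**Figure D4:**
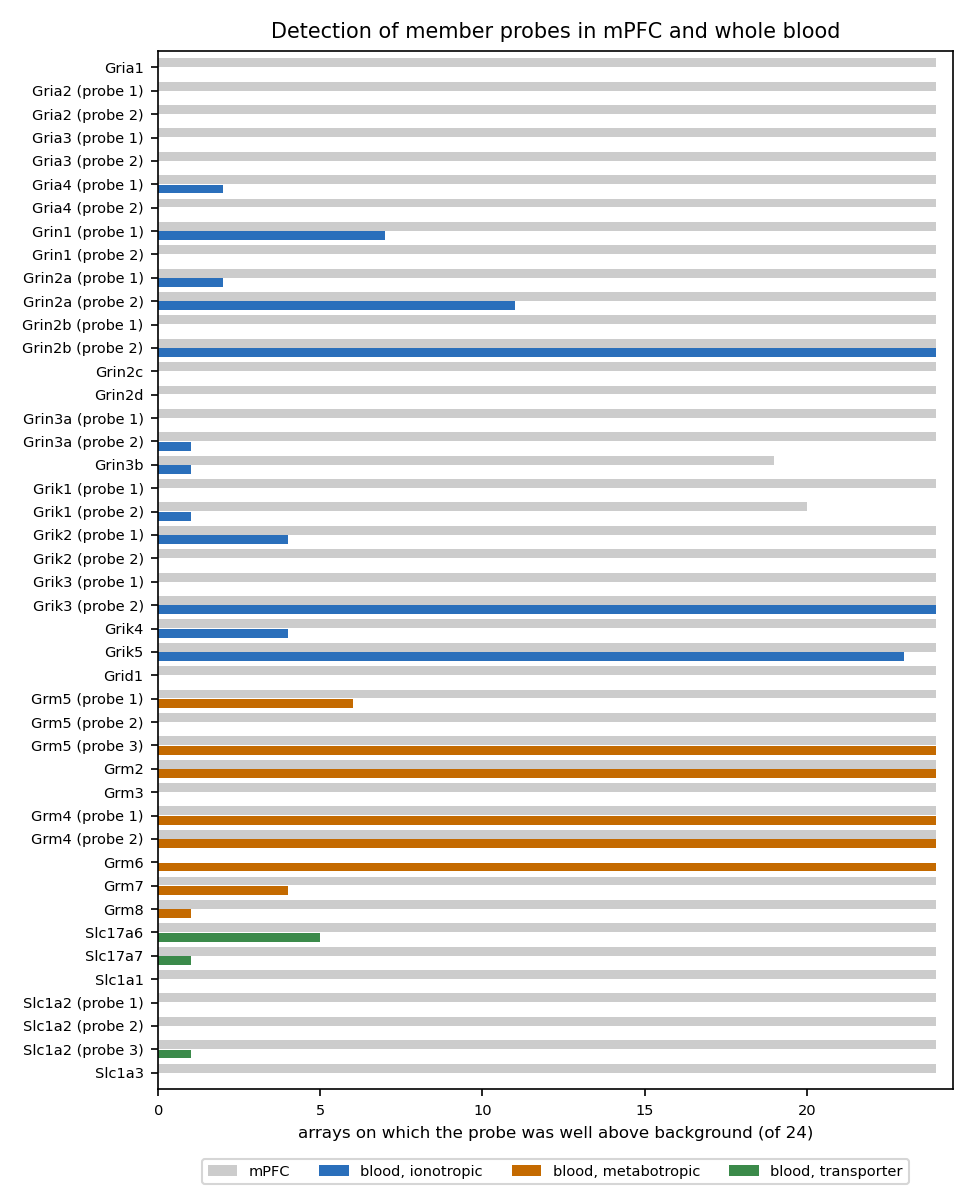
Number of arrays, of 24 in each tissue, on which each of the 44 member probes was well above background. Grey bars are mPFC and coloured bars are blood, by class. Probes of a gene are numbered from the brightest in mPFC. All 24 blood arrays showed 7 probes, 5 of them metabotropic receptors.

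For members whose lead mPFC probe was above background on no blood array, the difference between tissues has only a lower bound. The mPFC mean was set against, on each blood array, the higher of the probe's own signal and the lowest signal of any probe well above background. By this bound the mPFC exceeded blood at least 228-fold for Slc1a3, 208-fold for Slc1a2, 139-fold for Gria1, 103-fold for Slc1a1 and 102-fold for Gria3. The bounds were lower for Grik1 (at least 7.84-fold) and Grid1 (at least 4-fold), and Gria2, whose promoter is shown above, gave at least 19.6-fold. No bound could be given for Grin2d, whose mPFC signal was itself near that floor. Slc17a7 was well above background on 1 of 24 blood arrays and Slc17a6 on 5.

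Of the 5 genes with a probe detected in both tissues, all 5 differed between the tissues within mice, beside 96.1% of all lead probes detected in both. The lead probe of this comparison is the brightest of the probes detected in both tissues. For Grin2b, Grik3 and Grm5 it is not the lead probe of the mPFC. Grin2b, an NMDA receptor subunit, was higher in mPFC by 1.70 ± 0.08 (SE, n = 24), and Grm4, a presynaptic receptor, by 1.35 ± 0.12, although its other probe gave -0.42 ± 0.17. In blood 3 probes were higher, that of Grik3 by 3.60, of Grm5 by 2.51 and of Grm2 by 1.34, as the mPFC minus blood differences of -3.60 ± 0.13, -2.51 ± 0.07 and -1.34 ± 0.06 give. By the lower bound above, the mPFC lead probe was at least 67.7-fold higher in mPFC for Grin2b and at least 99.7-fold for Grik3. For Grik3 the 2 probes thus pointed in opposite directions. The tissues were extracted with different kits and scaled to percentiles of 571.6 to 688.8 in mPFC and 54.9 to 191.5 in blood, and with the spike-in shift the Grm2 difference turned to 0.45. Grm6, the receptor of retinal ON bipolar cells, was well above background on all 24 blood arrays, at signals of 12.8 to 69.1, and on 0 of 24 mPFC arrays.

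In blood the probes of 1 gene parted company for Grik3, Grin2b and Grm5, which is why the first 30 bases of both 60-base probes are shown, with their place on mm9.
Grik3, detected in blood, chr4:125385533-125385592: tcttgtctatggctttctgaagctgtgaag
Grik3, lead probe in mPFC, chr4:125391317-125391376: attattttcctttttaagacactgtgatat
Grin2b, detected in blood, chr6:135681653-135681712: aaggtgtttatctaaggaaggccattgaac
Grin2b, lead probe in mPFC, chr6:135680066-135680125: tttacctcagtatctctcatttaaatgcca
Grm5, detected in blood, chr7:94732759-94732818: tgttcactcactgatccaaggctagccagc
Grm5, lead probe in mPFC, chr7:95282581-95282640: attgtataatggctctgctgcagtctgtga
The Grik3 and Grin2b lead probes were above background on 0 of 24 blood arrays and that of Grm5 on 6, although in mPFC they were bright, with mean signals of 5760, 3900 and 13300. The probes detected in blood had mean blood signals of 169, 164 and 270 and mPFC signals of 58.9, 2920 and 253. On their transcripts the Grik3 probes started at base 2957 and 8741, the Grin2b probes at 5615 and 7202, and the Grm5 probes at 81 and 7531, with the probe detected in blood the nearer to the 5′ end each time. Values of these 3 genes in blood are therefore values of 1 probe that the others do not share, and not of the whole gene.

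The question in blood was then whether the 6 detected members differed with OVX or CUMS. With CUMS 5 of 6 rose and 0 fell, beside 51.2% of all lead probes in blood, of which 15.1% rose and 36.1% fell. With OVX 1 of 6 rose and 3 fell, beside 56%, of which 32.6% rose and 23.4% fell. The interaction gave 0 of 6, beside 1.31%, and 0 of 6 had an unadjusted p under 0.05. OVX+CUMS mice differed from control mice in 2 of 6, both higher, beside 4.77%, of which 3.02% were higher and 1.74% lower. Grm4 is in the counts of 5 and of 2 by a probe that passed the signal minimum for detection only in treated mice. The selection of this probe favoured a rise, and its signals are given below. The groups did not overlap for 2 of 6 members between OVX+CUMS and control mice (8.18% of all detected probes), 1 between CUMS and control mice (4.04%) and 3 between OVX and control mice (19.8%), and for 0 between OVX+CUMS and OVX mice (12.9%) or CUMS mice (5.34%).

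Grik3 encodes the GluK3 subunit of kainate receptors. Its blood probe lay at -1.58 to -1.0 (median -1.29) in the control group, -0.40 to 1.87 (0.45) under CUMS alone, -1.12 to 1.32 (0.31) after OVX alone and 0.76 to 1.62 (1.17) under both treatments. All CUMS and all OVX+CUMS mice lay above all control mice, as did 5 of the 6 OVX mice. The effects were 1.39 ± 0.24 for CUMS (adjusted p = 0.000771 by limma) and 1.02 ± 0.24 for OVX (adjusted p = 0.00168 by limma), and OVX+CUMS mice exceeded control mice by 2.41 (exact permutation p = 0.00216). This is a 5.31-fold difference, and in signal it ran from 39.6 to 53.5 in control mice against 205 to 374. The CUMS call held with slide as a block, at 0.94 (adjusted p = 0.0242 by limma), and with the spike-in shift, at 1.21 (adjusted p = 0.0438 by limma), whereas with the slide block the OVX effect was 0.11 (adjusted p = 0.987 by limma).

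Grin2b, Grm2 and Grm5 shared a pattern in blood, higher with CUMS and lower with OVX. Grin2b lay at 0.53 to 0.85 (median 0.68) in the control group, 0.75 to 1.21 (1.09) under CUMS alone, -0.07 to 0.19 (0.08) after OVX alone and 0.04 to 0.76 (0.22) under both treatments. Grm2, a presynaptic group II receptor, lay at 2.39 to 2.93 (2.52), 2.58 to 3.48 (2.77), 1.58 to 2.14 (1.83) and 1.97 to 2.59 (2.26) in the same order. For both genes all OVX mice lay below all control mice. Grm5 lay at 1.16 to 2.07 (1.52), 0.99 to 2.52 (1.78), 0.06 to 1.03 (0.44) and 0.83 to 1.37 (1.03), and its OVX mice also lay below all control mice. OVX effects were -0.65 ± 0.09, -0.66 ± 0.10 and -0.88 ± 0.15 for Grin2b, Grm2 and Grm5, and CUMS effects 0.30 ± 0.09, 0.39 ± 0.10 and 0.38 ± 0.15, with adjusted p-values of limma between 7.2e-05 and 0.0445. The CUMS call of Grm5 was lost when any of 15 of the 24 mice was left out, with values of 0.30 to 0.45.

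The 75th percentile subtracted from the blood arrays moved with the groups as well. It was 81.25 to 132.4 in the control group, 54.94 to 104.9 under CUMS alone, 110.4 to 191.5 after OVX alone and 102.8 to 144.4 under both treatments. The Grin2b signals before the shift were 146 to 192 in the control group, 127 to 213 under CUMS alone, 121 to 182 after OVX alone and 128 to 206 under both treatments, so they overlapped between all groups. Those of Grm2 were 602 to 695 in the control group and 422 to 583 after OVX alone, without overlap. Those of Grm5 were 286 to 488 and 138 to 238, also without overlap. Under CUMS alone both genes overlapped with the control group, at 485 to 724 for Grm2 and 208 to 428 for Grm5. With the spike-in shift, which moved the median OVX effect of all probes in blood from 0.04 to 0.39 and the median CUMS effect from -0.03 to -0.21, the OVX effects were -0.30 for Grin2b, which no longer passed (adjusted p = 0.0653 by limma), -0.31 for Grm2 and -0.53 for Grm5, which passed. The CUMS effects were then 0.12, 0.20 and 0.20 and did not pass. In the fit with slide as a block the CUMS effects were 0.33, 0.60 and 0.78 and passed, whereas the OVX effects were -0.60, -0.23 and -0.07 and did not.

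Grm4 had 2 probes detected in blood. Signals of the lead probe were 14.8 to 34.3 in control mice, all under the minimum for detection, and 51.5 to 118 under both treatments. In control mice its mean signal was 20.8, against 47.6 for the other probe. Its detection and its choice as lead probe thus rested on treated mice, which favoured a rise. The lead probe lay at -2.91 to -1.59 (median -2.51) in the control group, -2.26 to 1.18 (-1.52) under CUMS alone, -2.35 to -0.46 (-1.60) after OVX alone and -1.35 to -0.04 (-1.24) under both treatments, with a spread in CUMS mice (SD 1.31) far above that in control mice (SD 0.46). It rose with CUMS by 1.03 ± 0.32 (adjusted p = 0.0122 by limma), and the other probe by 0.58 ± 0.22 (adjusted p = 0.0315 by limma). For OVX they differed in sign without passing, at 0.53 and -0.45. For OVX+CUMS minus control the other probe gave 0.13 ± 0.31 and did not pass. With slide as a block the CUMS effect of the lead probe was 0.32 (adjusted p = 0.505 by limma), and OVX+CUMS minus control, 1.56 without the block, was -0.57. Grm6 gave -0.08 for CUMS and -0.04 for OVX, and its groups overlapped fully.

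**Figure D5:**
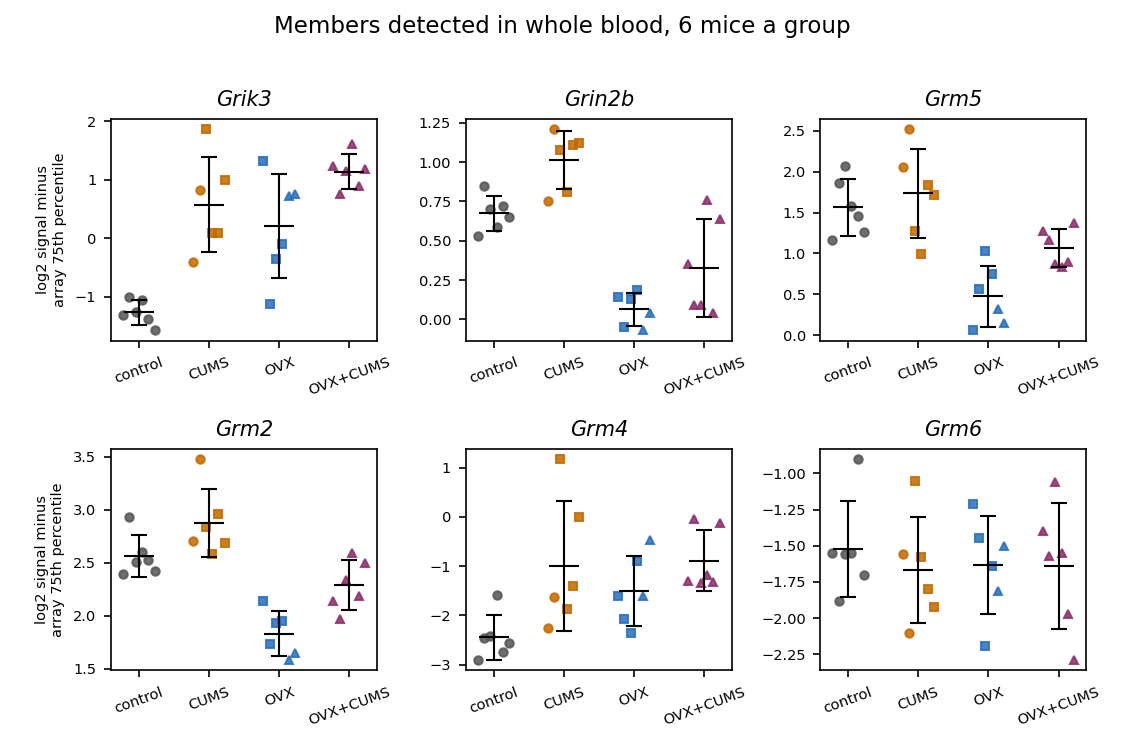
Blood levels of the 6 members detected there, by their lead blood probe, as log2 signal minus the array's 75th percentile, in the 4 groups of 6 mice. Points are mice (circles slide 1, squares slide 2, triangles slide 3), and bars are the mean and SD. Control mice lie lowest for Grik3, and OVX mice lie below control mice for Grin2b, Grm5 and Grm2.

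Markers of blood cells moved with the groups in ways that go beside these values. B cell markers, all 4 detected, had a mean level of -0.30 to 0.22 in the control group, -0.92 to -0.02 under CUMS alone, 0.31 to 0.64 after OVX alone and -0.91 to 0.37 under both treatments. All 4 fell with CUMS, beside 36.1% of all lead probes in blood. Red cell markers, all 4 detected, ran from -0.35 to 0.62, 0.15 to 1.13, -0.80 to 0.00 and -0.38 to 0.12 in the same order. All 4 fell with OVX, beside 23.4% of all lead probes, and 3 rose with CUMS, beside 15.1%. T cell markers ran from 0.12 to 0.46 in control mice and from -0.60 to -0.09 in OVX+CUMS mice. The part of these cells in the blood values was not tested.

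Whether an effect differed between the tissues was tested within mice for the probes detected in both. By lead probe the OVX effect differed for 4 of 5 genes, beside 38.1% of all lead probes, and the CUMS effect for 2 of 5, beside 52.8%. For OVX the mPFC minus blood difference was 0.80 ± 0.15 for Grin2b, 0.59 ± 0.12 for Grm2, 0.89 ± 0.15 for Grm5 and -0.75 ± 0.25 for Grik3. For CUMS it was -1.36 ± 0.25 for Grik3, which passed without any 1 of the 24 mice, and -0.31 ± 0.12 for Grm2, whose call was lost for 13 of the 24, with values of -0.36 to -0.25. In the mPFC the same probe of Grik3 gave 0.26 ± 0.11 for OVX and 0.04 ± 0.11 for CUMS, neither of which passed. Under the slide block 0 of 5 differences of the OVX effect passed and 4 of 5 of the CUMS effect did. The shares of all probes that passed in that model are not given here, so these counts cannot be read as particular to the members. No member had a lead mPFC probe that passed in the mPFC and was also detected in blood, so none of the 9 members that passed in the mPFC could be followed in blood by the same probe.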

How the data were processed

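RNA of 24 mPFC and 24 blood samples was measured on one-colour Agilent arrays. Per the labels and methods, the authors extracted signals with Feature Extraction 10.7.3.1, which subtracts background. The deposited intensity values used here are those processed signals, and the authors' deposited normalized table is on a log2 scale after a shift to the 75th percentile. Spots of a probe were averaged, log2 signals were shifted by the 75th percentile of each array, and probes were tested when well above background on all 24 arrays of a tissue with a processed signal over 50 on at least 2. The study's methods filter in the same way but on GeneSpring's present flags and raw intensity, so the sets of detected probes differ.

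The factorial model with surgery, stress and their interaction was fitted in limma 3.58.1 (R 4.3.3) on all detected probes of a tissue, with moderated spread and Benjamini-Hochberg adjustment over all of them at 0.05. Tissues were compared on differences within mice, since the labels tie the 2 arrays of a mouse to each other. Single contrasts of 6 against 6 mice were also tested by two-sided exact permutation. The labels name separate mice. P-values measure the spread between them.

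All members are named, and list genes as up to 3 called in each direction per effect. The members, lists and comparisons were chosen with earlier results of these data known. Alternatives changed the background correction, normalization, percentile, filter, moderation, blocks, probe and source table and left out each mouse. The shift by spike-in probes was added after seeing the data. Fits were tested on simulated data. Figures were drawn with matplotlib 3.10.9.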

Additional observations from a re-analysis of the deposited data

Results flagged for a closer look

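Of 132 groups of 6 mice examined among the members, 6 held a mouse far from the other 5, and chance alone gives about 1 in 20 such groups. In mPFC, control mouse 5 stood apart for Slc17a6, at -0.73 against -0.20 to -0.11 in the others, and for Grid1, at -0.94 against -1.76 to -1.46. Control mouse 2 was low for Grin2c, at 2.40 against 2.61 to 2.69. CUMS mouse 6 was high for Grik5, at 3.54 against 3.43 to 3.46, and OVX mouse 3 was high for Slc1a3, at 4.61 against 4.42 to 4.44. In blood, control mouse 5 was high for Grm6, at -0.90 against -1.88 to -1.55.

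The OVX effect differed between tissues by the test of the difference within mice for Grin2b (mPFC minus blood 0.80), Grm2 (0.59), Grm5 (0.89) and Grik3 (-0.75). The CUMS effect differed for Grik3 (-1.36), Grm2 (-0.31) and the Grm4 probe that leads in blood (-0.95). The part of blood cell composition in these differences was not tested.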

How the results depend on the processing

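With slide as a block the number of members that passed went from 5 to 0 for OVX, 5 to 0 for CUMS and 8 to 0 for OVX+CUMS minus control in mPFC, from 4 to 0 for OVX and 2 to 0 for OVX+CUMS minus control in blood, and from 4 to 0 and 2 to 4 for the tissue differences of the OVX and CUMS effects. Within slide 1 and within slide 3 the count for CUMS in mPFC was 0. With the spike-in shift, chosen after seeing the data, counts were 0 for OVX, 1 for CUMS and 1 for OVX+CUMS minus control in mPFC, 1 for CUMS in blood, and 1 for either tissue difference of effects. Over all detected probes this shift took the 3 mPFC counts from 8750, 1191 and 9479 to 2204, 140 and 3139. The blood CUMS count went from 10056 to 3401. Without the filter the member counts were 1 for CUMS and 5 for OVX+CUMS minus control in mPFC, 9 for OVX in blood, 29 for mPFC minus blood and 9 for the tissue difference of OVX. Only 6 members were detected in blood, so the counts of 9 and 29 include members at or near background there. Shares of all probes are not given for the fits with a block, without the filter or moderation, or without 1 mouse. Their counts cannot be read as particular to the members. Among probes detected on all 48 arrays all 3 mPFC counts were 0, where 2 lead probes of mPFC remained to be tested. Blood OVX+CUMS minus control gave 1 without moderation, with normexp or with quantile normalization, and the CUMS tissue difference gave 1 without moderation, with normexp or with the replicate block. Mice of different groups share replicate numbers, and same-numbered deviations correlated over 0.1 in 16 of 36 pairs in mPFC and 10 of 36 in blood. The median correlation was 0.04 in mPFC and -0.09 in blood, beside 0 and 0.01 for other pairs. These values cannot show whether same-numbered mice share more than the number. The replicate block gave 5, 4 and 8 in mPFC for OVX, CUMS and OVX+CUMS minus control, and 4, 4 and 2 in blood.

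The sign turned with the spike-in shift for OVX+CUMS minus control of Gria4 (-0.04), Grm5 (-0.01) and Slc1a1 (-0.10) and for mPFC minus blood of Grm2 (0.45), and with slide as a block for Grm5 (-0.01), Grm4 in blood (-0.57) and the OVX tissue difference of Grik3 (0.07). Leaving out 1 mouse gave 4 to 6 members for OVX, 3 to 5 for CUMS, 0 to 1 for the interaction and 5 to 8 for OVX+CUMS minus control in mPFC, 4 to 5, 4 to 5, 0 to 0 and 1 to 2 in blood, 5 to 5 for mPFC minus blood, and 4 to 4 and 1 to 3 for the tissue differences. Over single members 870 of these calls were kept and 90 lost, and 0 turned sign. The causes of these changes were not tested.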
